A study of Mus musculus with 2 samples.

Results

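The RNAs encoded by the mouse mitochondrial genome were described in granulocyte-monocyte progenitors by RNA type: 13 mRNAs, 22 tRNAs and 2 rRNAs. They were taken as every gene whose symbol in the GENCODE M21 annotation starts with mt-, which gave 37 genes among the 69691 rows of each deposited gene table. The rule itself uses gene names and no measured value. The study holds 1 group of 2 total RNA-seq libraries from primary granulocyte-monocyte progenitors (GMP), marrow progenitors of the neutrophil and monocyte lineages. The cells came from male adult C57BL/6J mice aged 5 to 6 weeks, and the labels name no transgene, mutation or treatment. Each library was made from a pool of 100 cells, with spike-in RNAs added and an RNA size range above 200 bases stated in the labels. The 2 libraries share a donor identifier but have their own sample identifiers, and it is not stated whether they came from separate animals. Every SD below is therefore only the spread between 2 libraries, which may be technical, and with a single group no comparison between conditions and no test was possible.

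The mitochondrial genome is a small circle that is transcribed from both strands into long RNAs covering many genes. In the textbook account, tRNAs lying between the longer genes are cut out of these precursors, which releases the rRNAs and mRNAs on either side (the tRNA punctuation model). All mitochondrial mRNAs encode membrane subunits of the respiratory chain or of ATP synthase, and both rRNAs build the mitochondrial ribosome that translates them. The polymerase, ribosomal proteins and processing enzymes are all encoded in the nucleus. Fragments of mitochondrial DNA have also been copied into nuclear chromosomes, and such copies can carry the same letters as the mitochondrial gene.

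Read along the annotated sequence from mt-Tf to mt-Tp, the members lie close together. Of 36 neighbouring pairs, 35 are separated by 5 bases or fewer or overlap. Of these 36 pairs, 12 abut exactly, 9 overlap and 15 leave a gap, the longest of 32 bases between mt-Tn and mt-Tc. The stretch that closes the circle, from the end of mt-Tp at base 15422 to mt-Tf at base 1, holds no annotated member. It was not counted among these pairs and gaps, and its length and sequence were not read. Among the 14 neighbouring pairs of rRNA and mRNA genes, 10 have at least 1 tRNA gene between them. The other 4 are mt-Atp8 and mt-Atp6, mt-Atp6 and mt-Co3, mt-Nd4l and mt-Nd4, and mt-Nd5 and mt-Nd6, whose annotated spans overlap directly. The following stretches show how little sequence separates the rRNAs from each other and from the next mRNA, mt-Nd1, with each tRNA in capitals and 20 bases of the long gene on either side in lower case. They were read 5′ to 3′ on the plus strand from the GENCODE M21 transcripts on GRCm38 (mm10), at chrM:1005-1113 and chrM:2656-2770.
mt-Rnr1 end, mt-Tv, mt-Rnr2 start: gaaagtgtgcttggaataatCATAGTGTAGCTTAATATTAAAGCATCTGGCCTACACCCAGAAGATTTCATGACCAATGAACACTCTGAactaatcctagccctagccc
mt-Rnr2 end, mt-Tl1, mt-Nd1 start: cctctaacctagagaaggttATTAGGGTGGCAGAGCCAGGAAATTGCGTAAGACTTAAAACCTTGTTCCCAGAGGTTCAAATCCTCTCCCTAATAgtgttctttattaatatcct
In both stretches no base lies between the tRNA and its neighbours.

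The 2 pairs of same-strand mRNAs with the longest overlaps are shown because their short members gave the most scale-dependent values below. In mt-Atp8, at chrM:7766-7969 on the plus strand, the capitals mark the last 43 bases, which are also the start of mt-Atp6. In mt-Nd4l, at chrM:9877-10173 on the plus strand, the capitals mark the 7 bases shared with mt-Nd4.
mt-Atp8: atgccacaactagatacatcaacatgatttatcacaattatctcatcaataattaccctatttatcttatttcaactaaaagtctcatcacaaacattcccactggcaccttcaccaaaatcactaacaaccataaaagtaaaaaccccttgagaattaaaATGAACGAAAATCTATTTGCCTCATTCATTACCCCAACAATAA
mt-Nd4l: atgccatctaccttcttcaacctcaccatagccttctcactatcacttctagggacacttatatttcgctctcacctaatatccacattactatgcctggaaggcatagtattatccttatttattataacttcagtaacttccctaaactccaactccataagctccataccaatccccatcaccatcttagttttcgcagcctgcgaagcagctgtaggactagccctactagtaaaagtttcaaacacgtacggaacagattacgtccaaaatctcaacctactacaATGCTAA
Each overlap opens with the ATG of the downstream gene. Of the 13 mRNAs, 9 start with ATG, and mt-Nd1 (GTG), mt-Nd2 (ATA), mt-Nd3 (ATT) and mt-Nd5 (ATC) do not. A complete stop codon closes 10 annotated mRNAs, whereas mt-Co3, mt-Nd4 and mt-Cytb end in a lone T, where the stop codon is known to be completed by the added poly(A) tail.

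The libraries held 40509954 expected counts in replicate 1 and 35675702 in replicate 2. An expected count is an estimate of the reads of a gene, in which a read that fits several genes is divided among them, so it can be fractional. The GMP label was set beside markers, which were chosen with earlier results of these data known and so are no independent check. TPM is a level per length, scaled to a fixed library total. In both libraries 11 of 11 GMP genes were at 1 TPM or more, against 45.6% of all protein-coding rows. They ranged from Csf1r at 35.3 ± 2.29 TPM to Mpo at 6467 ± 191 TPM. Of the defining genes of other lineages many were at 0 and some were not. Hbb-bs, Ppbp, Cd79a, Ebf1, Pax5, Cd3e, Cd3d, Cd8a and Ly6a had 0 counts in both libraries. The summed level of 6 erythroid genes was 0.62 and 1.91 TPM, while Itga2b of the megakaryocyte list stood at 7.08 ± 1.52 TPM and Hlf of the stem cell list at 5.07 ± 0.311 TPM. Of 4 macrophage genes, Adgre1 at 3.59 ± 0.672 TPM and Vcam1 at 2.54 ± 0.764 TPM reached 1 TPM in both libraries. Later neutrophil genes differed between libraries, with 5 genes summing to 98.2 TPM in replicate 1 and 17.1 TPM in replicate 2. Among them were Ngp, at 44.7 and 0.88 TPM, and Camp, at 24.4 and 1.99 TPM. Only Mmp8 was higher in replicate 2, at 1.07 and 2.24 TPM. These genes were named after their values had been seen, and the part of the later neutrophil genes in the values below was not tested. In bulk RNA, fewer cells of a type and less RNA per cell cannot be told apart, and the same holds for fewer mitochondria and less RNA per mitochondrion.

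By type, the mitochondrial rRNAs took most of the mitochondrial counts, the mRNAs a small part and the tRNAs none. In replicate 1 the rRNAs took 12.98% of all expected counts, with a 95% Wilson interval from 12.97% to 12.99%. In replicate 2 they took 14.12% (14.11% to 14.13%), and the mean was 13.6 ± 0.807% (SD, n = 2). The mRNA share was 1.60% in replicate 1 (1.598% to 1.606%) and 1.504% in replicate 2 (1.500% to 1.508%), a mean of 1.55 ± 0.0691%. For both types the intervals of the 2 libraries do not overlap, but they cover counting error only and take every count as independent. The labels name no molecular identifiers, so amplified reads of the same molecule cannot be told apart, and the intervals may be too narrow. They also leave out error in dividing shared reads among genes. The rRNA share was higher in replicate 2, and the mRNA share was higher in replicate 1. Counts on nearly identical nuclear copies, described further on, are outside these shares, and adding them gave 1.73% and 1.78% for the mRNAs, so that the order of the libraries turned.

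The small-subunit rRNA mt-Rnr1 lies at chrM:70-1024 on the plus strand and the large-subunit rRNA mt-Rnr2 at chrM:1094-2675. The mt-Rnr1 values were 85735 TPM in replicate 1 and 85082 in replicate 2, a mean of 85409 ± 462 TPM (n = 2). For mt-Rnr2 the values were 77990 and 87279 TPM, a mean of 82634 ± 6568 TPM. They ranked the 2nd and the 3rd of all 69691 rows by mean TPM. Both rRNAs are needed in equal number in a ribosome, and the ratio of mt-Rnr2 to mt-Rnr1 on the TPM scale was 0.910 in replicate 1 and 1.03 in replicate 2, a mean of 0.968 ± 0.0821. The ratio lay below 1 in one library and above 1 in the other, so no order of the 2 rRNAs held in both. By expected counts, which carry no length correction, the ratio was 1.73 ± 0.145, and per annotated base it was 1.04 ± 0.0873.

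The boundary between the rRNAs and the mRNAs is a single tRNA, mt-Tl1, shown above between mt-Rnr2 and mt-Nd1. Across it the TPM fell from mt-Rnr2 to mt-Nd1 by a ratio of 42.9 in replicate 1 and 46.8 in replicate 2, a mean of 44.8 ± 2.78. The mean of both rRNAs was 36.9 and 35.6 times the median mRNA on the TPM scale with copies added, a mean of 36.3 ± 0.880. Summed TPM of the rRNAs over that of the mRNAs was 5.52 and 6.42 as deposited, a mean of 5.97 ± 0.636, and with copies added it was 4.85 and 5.00, a mean of 4.93 ± 0.110. The spread of that ratio was thus smaller once the copies were added. The part of library preparation in these ratios of rRNA to mRNA was not tested.

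**Figure D1:**
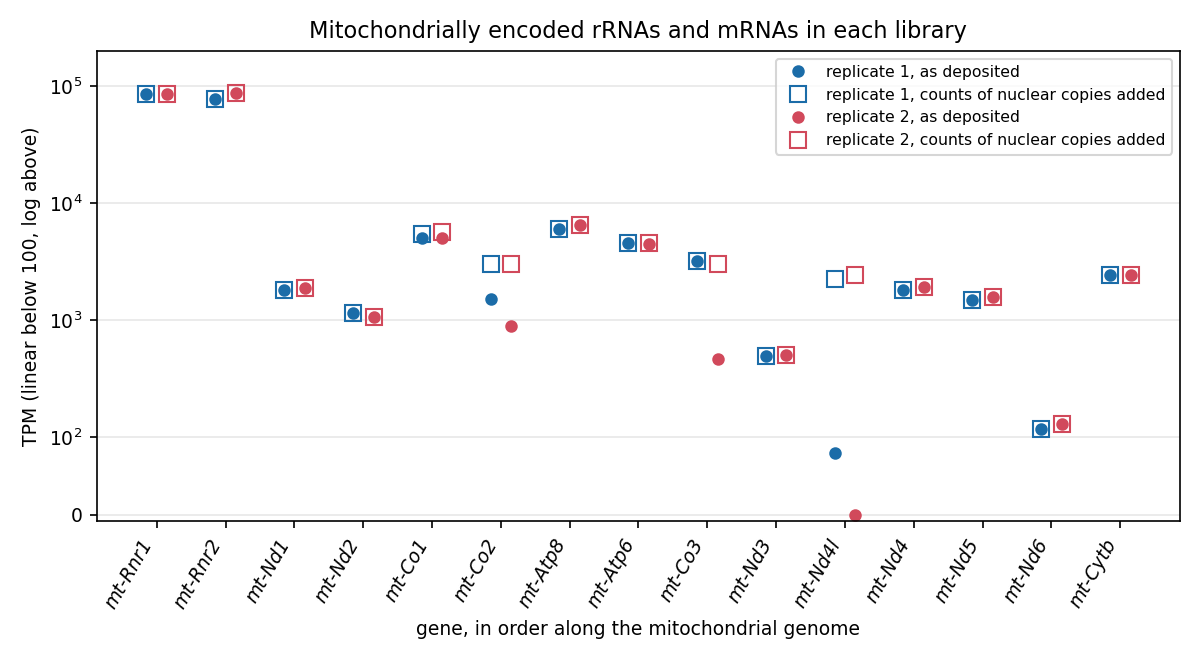
TPM (linear below 100, log above) of the 2 rRNAs and 13 mRNAs in genome order, as deposited (filled points) and with the counts of nuclear copies added (open squares), for replicate 1 in blue and replicate 2 in red. Filled points of the 2 libraries part for mt-Co2, mt-Co3 and mt-Nd4l, while all open squares of a gene lie close together.

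The tRNA genes carry the amino acids for mitochondrial translation and are the shortest members, from 59 bases in mt-Ts2 to 75 bases in mt-Tl1. On the plus strand lie 14 of them (mt-Tf, mt-Tv, mt-Tl1, mt-Ti, mt-Tm, mt-Tw, mt-Td, mt-Tk, mt-Tg, mt-Tr, mt-Th, mt-Ts2, mt-Tl2 and mt-Tt). The other 8 (mt-Tq, mt-Ta, mt-Tn, mt-Tc, mt-Ty, mt-Ts1, mt-Te and mt-Tp) lie on the minus strand. All 22 rows held 0 expected counts in both libraries. All 22 also had an effective length of 0 in both, the effective length being roughly the number of positions at which a fragment of typical length could start. The same was true of every short row: 726 Ensembl rows had a length within the tRNA range, all 726 had an effective length of 0, and 0 of them held counts in either library. An effective length of 0 was given to 27941 rows in replicate 1, the longest of 91 bases, and to 27895 rows in replicate 2, the longest of 90 bases. Of these rows 3 held counts in replicate 1 (32.2 in all) and 6 in replicate 2 (36.6 in all). A 0 was thus deposited for every Ensembl row of tRNA length, and for a tRNA it sets no upper limit on abundance.

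As deposited, the 13 mRNAs spanned 79.3 to 5983 TPM in replicate 1 and 0 to 6423 TPM in replicate 2. Most of them repeated closely between the libraries and 3 did not. The cytochrome oxidase subunit mt-Co3 had 3192 TPM in replicate 1 but 463 in replicate 2, a mean of 1827 ± 1930 TPM. The complex I subunit mt-Nd4l stood at 79.3 TPM in replicate 1 and was listed at 0 in replicate 2. For mt-Co2, another cytochrome oxidase subunit, the values were 1517 and 885 TPM, a mean of 1201 ± 447 TPM. All 3 were lower in replicate 2. The other 12 rRNAs and mRNAs differed between libraries by -0.12 (mt-Nd2) to 0.16 (mt-Rnr2) on the log2(TPM + 1) scale, as replicate 2 minus replicate 1.

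A difference of 2-fold or more in TPM + 1 between the libraries was seen for 2 of the 15 members that held 10 expected counts in at least 1 library, mt-Co3 and mt-Nd4l. The same was true of 10.6% of the 13917 Ensembl rows that passed that filter and of 7.89% of the 11818 protein-coding ones. Among the 4545 protein-coding rows with a mean of 1000 counts or more it was 1.06%. The log2 difference was -2.78 for mt-Co3 and -0.78 for mt-Co2, against a median of 0.06 over the 13917 rows.

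The nuclear copies were found by aligning the members to all annotated transcripts, keeping rows of at least 95% identity over at least 200 bases. There were 11 such rows, 8 of which held counts, and together they copied 9 of the 13 mRNAs. A block of 7 copies lies at chr1:24611535-24616197 on the minus strand, and 5 of these 7 are identical to their member over the whole length of the copy. Read along the minus strand, the block keeps the mitochondrial gene order from mt-Co1 to mt-Nd4, with no annotated row for mt-Atp8. Of the other copies, Gm13339, Gm13340 and Gm13341 lie on chromosome 2 and Gm4076 on chromosome 13.

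The copy Gm28437 matches mt-Co3 over 783 of its 784 bases, and Gm28661 matches mt-Co2 over 681 of its 684 bases. The last 60 bases of both members are shown because the capitals are the only annotated letters that the copy row lacks, at chrM:9331-9390 for mt-Co3 and chrM:7637-7696 for mt-Co2, both on the plus strand of GRCm38.
mt-Co3 3′ end: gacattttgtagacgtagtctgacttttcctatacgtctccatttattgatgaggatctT
mt-Co2 3′ end: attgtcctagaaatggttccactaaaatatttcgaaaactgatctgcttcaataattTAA
A read inside either gene that does not reach those last letters carries no letter that separates the mitochondrial row from the chromosome 1 row. The copy Gm10222 likewise matches 294 of the 297 bases of mt-Nd4l, Gm10925 matches 678 of the 681 bases of mt-Atp6, and Gm28439 matches 876 bases of mt-Nd4.

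In the same block 2 copies differ from their member. Gm29216 covers the last 492 bases of mt-Co1 and differs from it at 6 of them, all within the first 13 bases of the copy, after which 479 bases are identical. Gm28438 covers 345 bases of mt-Nd3 and differs at 1. Both pairs are shown from the first base of the copy, with the differing bases in capitals, on the plus strand for the members (chrM:6381-6423 and chrM:9459-9491) and the minus strand for the copies (chr1:24616155-24616197 and chr1:24613087-24613119).
mt-Co1: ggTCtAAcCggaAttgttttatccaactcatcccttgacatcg
Gm29216: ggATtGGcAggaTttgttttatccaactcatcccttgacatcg
mt-Nd3: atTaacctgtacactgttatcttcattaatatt
Gm28438: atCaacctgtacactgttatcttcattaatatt
Counted from 1 at the 5′ end of the member, with the member's base first, these are T1056A, C1057T, A1059G, A1060G, C1062A and A1066T in Gm29216, and T3C in Gm28438.

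The counts on these rows moved between a member and its copy. The mt-Co3 row held 58475 expected counts in replicate 1 and 7604 in replicate 2, while Gm28437 held 526 and 41752. Of the counts of that pair, 0.892% lay on the copy in replicate 1 and 84.6% in replicate 2. The mt-Co3 row was thus high where its copy was low, and low where its copy was high.

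For mt-Nd4l the row held 328 counts in replicate 1 and 0 in replicate 2, while Gm10222 held 8838 and 9083, or 96.4% and 100% of the pair. For mt-Co2 the row held 23339 and 12221 counts, while Gm28661 held 22984 and 29067, and with the few counts on Gm13341 the copies took 49.6% and 70.4%. In both pairs the copies took the larger share in replicate 2.

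The copies of 3 more members held counts. For mt-Co1 the copies Gm29216 and Gm13340 took 8.62% and 9.50% of the counts. Of these, Gm29216 held 19093 and 19236 counts and Gm13340 held 60.9 and 107. Gm29216 covers only the last 492 of the 1545 bases of mt-Co1, while the share is taken over the counts of the whole gene and its copies. For mt-Atp6 the copy Gm10925 held 0 and 182 counts, and for mt-Nd4 the copy Gm28439 held 18.0 and 0. Gm28438 of mt-Nd3, Gm13339 of mt-Nd2 and Gm4076 of mt-Nd5 held 0 counts in both libraries. Identity over the whole copy did not by itself go with a large share, since Gm10925 and Gm28439 are also identical to their members.

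**Figure D2:**
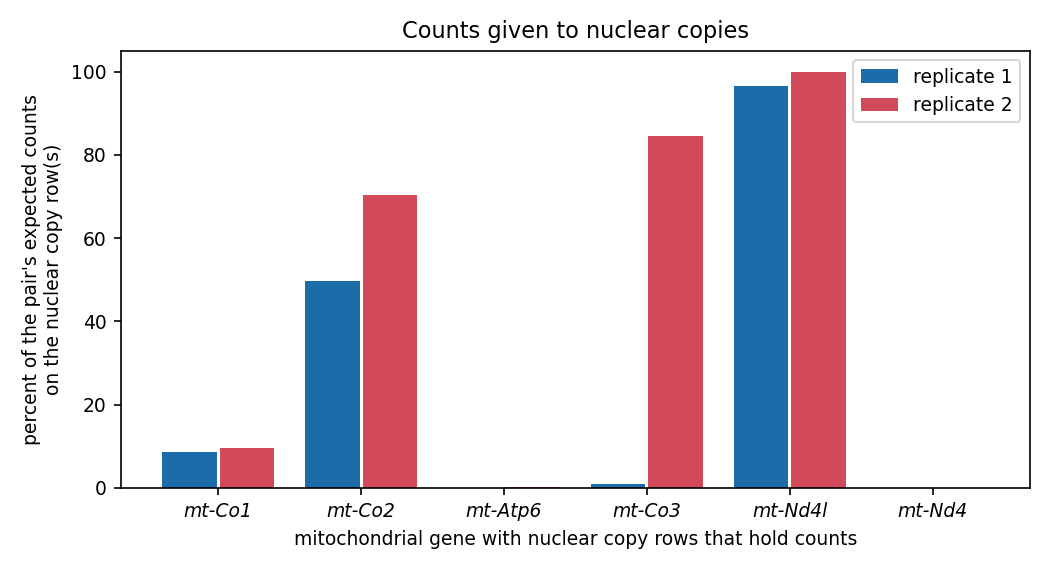
Percent of the expected counts of each member and its copies that lay on the copy rows, for the 6 mRNAs with copy counts, in replicate 1 (blue) and replicate 2 (red). The mt-Co3 bars stand at 0.892% and 84.6%, those of mt-Nd4l near the top in both libraries, and those of mt-Atp6 and mt-Nd4 at the axis. The copies Gm29216 of mt-Co1 and Gm28439 of mt-Nd4 cover only part of their member.

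The sum over a member and its copies was a whole number within 0.02 counts for 6 of 6 members in both libraries. The member's own count was fractional for 5 of the 6 in replicate 1 (all but mt-Atp6) and for 4 in replicate 2 (all but mt-Nd4l and mt-Nd4). Where it was whole, the copies held 0 counts or the member did, and the whole sum carries no information. For mt-Co3 the sums were 59001 and 49356 counts, and for mt-Nd4l they were 9165 and 9083. The sums for mt-Co2 were 46328 and 41293 counts. Fractional parts add up to a whole number where reads are divided among these rows and with no further row. Which of the rows a shared read came from cannot be told apart from these tables. Copies held 7.36% of the mRNA counts with copies in replicate 1 and 15.6% in replicate 2.

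With the counts of the copies added and divided by the member's own effective length, the libraries lay close together for these members. This scale was chosen after the values had been seen, and it describes the letters counted, not the locus they came from. On it mt-Co3 had 3221 TPM in replicate 1 against 3004 in replicate 2, a mean of 3113 ± 153 TPM. The values for mt-Co2 were 3012 and 2991 TPM, a mean of 3001 ± 15.0 TPM. For mt-Nd4l they were 2219 and 2418 TPM, a mean of 2319 ± 140 TPM. The log2 differences became -0.10, -0.01 and 0.12 in that order. Over all 15 members with counts the differences then ranged from -0.12 to 0.16, and 0 of 15 were 2-fold or more apart.

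The deposited tables also hold, within each library, a posterior SD of the count, which describes how firmly reads were assigned. It was 37.0% of the posterior mean for mt-Co3 in replicate 1 and 69.1% in replicate 2. For mt-Nd4l it was 28.5% and 93.6%, and for mt-Co2 20.0% and 26.4%. These 3 members were set apart from the rest on this measure in each library taken alone. The next were mt-Nd3 at 2.81% and 3.43% and mt-Atp6 at 1.20% and 2.07%, while mt-Co1 and mt-Nd4 stood below 1%. For 6 mRNAs (mt-Nd1, mt-Nd2, mt-Atp8, mt-Nd5, mt-Nd6 and mt-Cytb) the posterior SD was under 1 count in both libraries.

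The deposited interval of TPM, whose level is not stated, was correspondingly wide. For mt-Co3 it ran from 807 to 2944 TPM in replicate 1 and from 176 to 2338 TPM in replicate 2. The 2 intervals of mt-Co3 overlap, although the deposited TPM differed 6.88-fold on the TPM + 1 scale. The interval is set around a posterior mean TPM held in a separate column, and the deposited TPM lay above it for 12 of the 15 rRNAs and mRNAs in replicate 1 and for 11 in replicate 2, so a value outside its interval was common among the members. The interval of its copy Gm28437 ran from 108 to 2240 TPM in replicate 1 and from 528 to 2703 TPM in replicate 2. For mt-Co2 the intervals were 1148 to 2184 TPM and 626 to 1535 TPM, which also overlap. For mt-Nd4l they were 45.4 to 152 TPM in replicate 1 and at most 22.9 TPM in replicate 2, so they do not overlap.

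**Figure D3:**
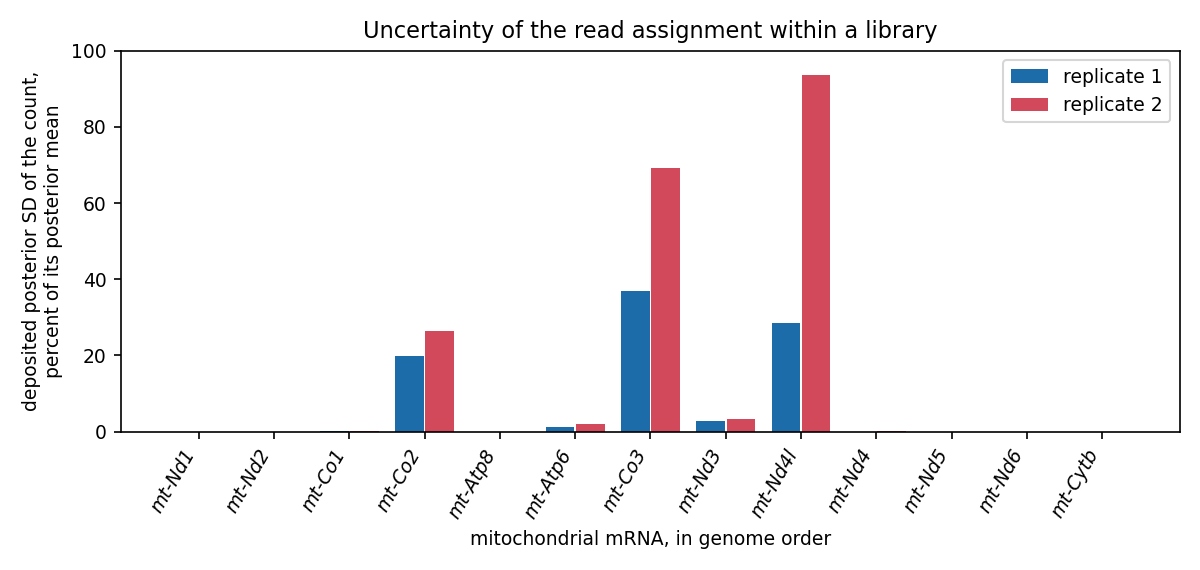
Deposited posterior SD of the count as a percent of its posterior mean for the 13 mRNAs in genome order, in replicate 1 (blue) and replicate 2 (red). Only mt-Co2, mt-Co3 and mt-Nd4l rise above 5% in either library, and mt-Nd4l in replicate 2 is highest at 93.6%.

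On the TPM scale with copies added, the order of the mRNAs from high to low was mt-Atp8, mt-Co1, mt-Atp6, mt-Co3, mt-Co2, mt-Cytb, mt-Nd4l, mt-Nd4, mt-Nd1, mt-Nd5, mt-Nd2, mt-Nd3 and mt-Nd6. The values of the 2 libraries overlapped for 2 of the 12 neighbouring pairs in that order, mt-Co3 with mt-Co2 and mt-Nd4 with mt-Nd1. The ATP synthase, cytochrome oxidase and cytochrome b genes thus filled the upper 6 places, and all 7 complex I genes the lower 7. Because SDs rest on 2 libraries, the absence of overlap is a weak separation for close pairs such as mt-Cytb and mt-Nd4l.

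Complex I, the NADH dehydrogenase at the entry of the respiratory chain, has 7 mitochondrial subunits. Of these, mt-Nd4 stood at 1809 and 1923 TPM with copies, a mean of 1866 ± 80.2 TPM. For mt-Nd1 the values were 1819 and 1864 TPM, a mean of 1842 ± 32.2 TPM. The longest mRNA, mt-Nd5, stood at 1492 and 1575 TPM, a mean of 1534 ± 59.2 TPM. With mt-Nd4l at 2319 TPM these were the 4 highest complex I members.

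The other complex I members were lower. The values of mt-Nd2 were 1144 and 1051 TPM, a mean of 1097 ± 66.1 TPM. For mt-Nd3 they were 487 and 504 TPM, a mean of 496 ± 12.1 TPM. The lowest was mt-Nd6, at 116 and 130 TPM, a mean of 123 ± 9.57 TPM. Complex I members together held 31.8% and 32.5% of the mRNA counts with copies, a mean of 32.1 ± 0.470%.

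Complex III, which passes electrons to cytochrome c, has a single mitochondrial subunit, cytochrome b. Its gene mt-Cytb stood at 2424 and 2445 TPM, a mean of 2434 ± 14.8 TPM, and held 9.97 ± 0.0412% of the mRNA counts with copies. No copy of mt-Cytb passed the identity and length limits.

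Complex IV, cytochrome c oxidase, has its catalytic core encoded by mt-Co1, mt-Co2 and mt-Co3. The mt-Co1 gene stood at 4990 and 5066 TPM as deposited, and at 5461 and 5598 TPM with copies, a mean of 5529 ± 97.3 TPM. With copies, mt-Co1 was 1.81 and 1.87 times mt-Co2 on the TPM scale, and mt-Co3 was 1.07 and 1.00 times mt-Co2. Products of these 3 genes meet in equal number in the enzyme, while the mt-Co1 mRNA was above the other two in both libraries. The 3 genes held 46.7% and 46.3% of the mRNA counts with copies, a mean of 46.5 ± 0.341%, against 43.9% and 38.0% as deposited.

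Complex V, the ATP synthase, has the mitochondrial subunits mt-Atp6 and mt-Atp8. The mt-Atp6 gene stood at 4582 and 4515 TPM with copies, a mean of 4549 ± 47.2 TPM. The mt-Atp8 gene stood at 5983 and 6423 TPM, a mean of 6203 ± 311 TPM, and no copy of it passed the limits. They held 11.4 ± 0.0876% of the mRNA counts with copies.

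The place of mt-Atp8 depended on how length was treated. Its 204 bases left an effective length of 57.6 bases in replicate 1 and 59.7 in replicate 2, or 28.2% and 29.3% of the annotated length, against 76.4% and 76.9% for mt-Atp6. The mt-Atp8 gene, shown above with its overlap, is known to share an mRNA with mt-Atp6. The TPM ratio of mt-Atp8 to mt-Atp6 with copies was 1.31 and 1.42, a mean of 1.36 ± 0.0826. The ratio of counts per annotated base was 0.482 and 0.541, a mean of 0.512 ± 0.0417. So mt-Atp8 was above mt-Atp6 in both libraries on the TPM scale and below it in both per annotated base.

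The same turn was seen for mt-Nd4l, which is known to share an mRNA with mt-Nd4. With copies, the ratio of mt-Nd4l to mt-Nd4 was 1.23 and 1.26 on the TPM scale, a mean of 1.24 ± 0.0219. Per annotated base it was 0.657 and 0.685, a mean of 0.671 ± 0.0198. The effective length of mt-Nd4l was 47.3% and 48.3% of its 297 bases. Which scale is nearer to the number of molecules was not tested.

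Per annotated base, with copies, mt-Co1 was highest at 3621 ± 103 counts per kilobase of annotated length, scaled to a fixed library total. It was followed by mt-Atp6 at 2546 ± 8.01, mt-Co3 at 1811 ± 65.8, mt-Co2 at 1682 ± 14.3, mt-Cytb at 1530 ± 26.8 and mt-Atp8 at 1304 ± 110 on the same scale. The lowest were mt-Nd2 at 678 ± 32.9, mt-Nd3 at 199 ± 8.82 and mt-Nd6 at 62.4 ± 5.81. By rank, mt-Atp8 went from 1 on the TPM scale to 6 on this one and mt-Nd4l from 7 to 10. The lowest 3 were the same genes on both scales.

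**Figure D4:**
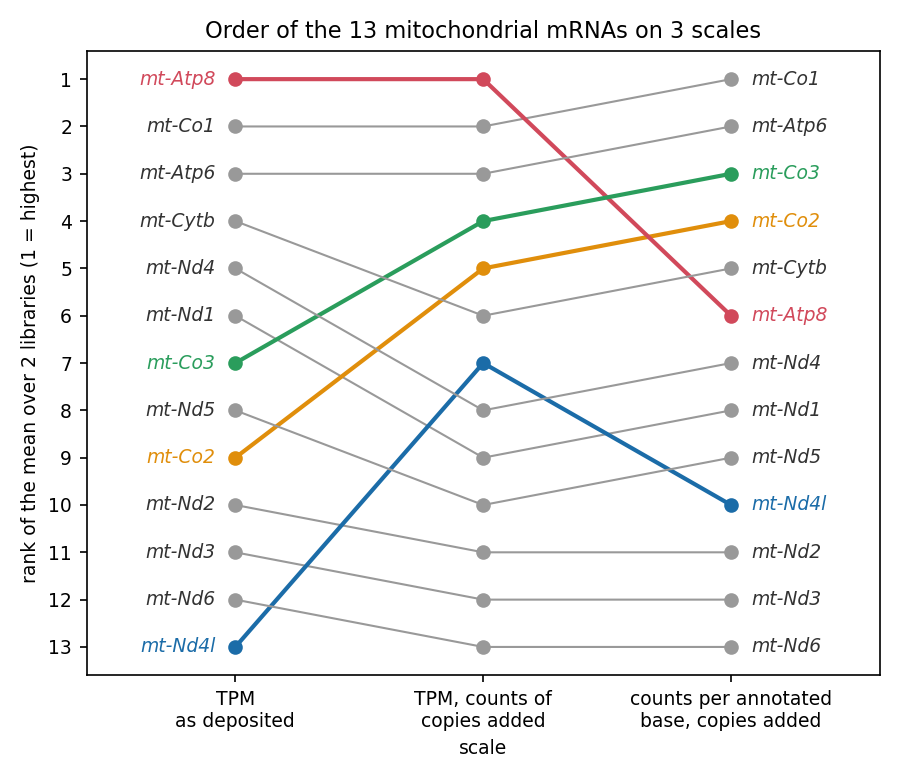
Rank of the mean over 2 libraries (1 is highest) of the 13 mRNAs by TPM as deposited, by TPM with the counts of copies added, and by counts per annotated base with copies added; lines join a gene. Adding copies lifts mt-Nd4l from 13 to 7, mt-Co2 from 9 to 5 and mt-Co3 from 7 to 4, and leaving out the effective length moves mt-Atp8 from 1 to 6.

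The strands were unequal. The plus strand carries 28 members (12 mRNAs, 14 tRNAs and both rRNAs) and held 99.98% of the members' counts in each library. The minus strand carries mt-Nd6 and 8 tRNAs and held 0.0207% and 0.0221%, all of it on mt-Nd6. Of the mRNA counts with copies, mt-Nd6 held 0.175% and 0.194%. Its neighbour mt-Nd5, whose last 14 annotated bases face mt-Nd6 on the other strand, was 12.8 and 12.1 times higher on the TPM scale, a mean of 12.5 ± 0.491. Whether counting used strand is not stated, so reads from either strand across mt-Nd6 cannot be told apart.

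Within the 12 plus-strand mRNAs, which are transcribed in the same direction, the highest was 12.3 times the lowest in replicate 1 and 12.7 times in replicate 2 on the TPM scale with copies. Their level did not follow their order along the strand closely. Spearman's rho between position and mean TPM with copies was -0.154 over the 12 genes and -0.109 over 11 genes without mt-Atp8. It is a description across genes that share libraries and precursors, and genes are not independent replicates.

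Set against all 21474 protein-coding rows by mean TPM as deposited, mt-Atp8 ranked 3, mt-Co1 ranked 5 and mt-Atp6 ranked 7. As deposited, 4 mitochondrial mRNAs lay among the 20 highest. With copies, each member was ranked in turn against the other rows as deposited, and 7 then lay there. The gain came from mt-Co3, which went from rank 40 to 8, mt-Co2, from 76 to 9, and mt-Nd4l, from 1882 to 20. With all copies added at once, mt-Co3 and mt-Co2 would also pass mt-Nd4l, which would then lie below the 20 highest. The lowest mRNA with copies, mt-Nd6, ranked 489. All 13 lay among the 500 highest with copies, and 12 of 13 as deposited.

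Mitochondrial subunits of each complex were set beside nuclear subunits of the same complex, which are translated in the cytosol and imported. With copies added, the median of the 7 mitochondrial complex I genes was 24.8 and 20.6 times that of 7 nuclear core genes, a mean of 22.7 ± 2.96. Among those core genes, Ndufv2 stood at 94.1 ± 2.18, Ndufs3 at 76.4 ± 0.233 and Ndufs7 at 72.0 ± 28.2 TPM.

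In complex III, mt-Cytb was 14.5 and 17.7 times the median of 9 nuclear genes, a mean of 16.1 ± 2.27. The highest of these was Uqcrh, a hinge protein gene, at 362 ± 18.9 TPM, followed by Uqcrb at 230 ± 51.4, Uqcr11 at 196 ± 19.8 and Uqcr10 at 185 ± 19.3 TPM. In complex IV the ratio of medians was 9.65 and 10.8, a mean of 10.2 ± 0.835, and 3 of 3 mitochondrial genes lay above Cox4i1, the highest of 10 nuclear genes, at 531 ± 18.9 TPM. The genes Cox8a at 420 ± 9.65, Cox6c at 360 ± 18.7 and Cox7c at 317 ± 49.0 TPM followed. In complex V the ratio was 20.7 and 24.8, a mean of 22.8 ± 2.93, and both mitochondrial genes lay above Atp5b, the catalytic beta subunit gene, the highest of 15 nuclear genes at 930 ± 43.7 TPM. The next were Atp5g3 at 447 ± 7.22, Atp5h at 420 ± 62.0 and Atp5e at 331 ± 27.6 TPM. By mean TPM with copies, every mitochondrial mRNA of complexes III, IV and V was thus above every listed partner. As deposited, mt-Co3 in replicate 2, at 463 TPM, was below Cox4i1 at 545 TPM in that library. Of the 4 complexes the ratio of medians with copies was lowest for complex IV in both libraries. Only for complex I was the nuclear list limited to core genes, so the ratios rest on unlike lists. Nuclear subunit genes can also share reads with copies of their own, and their counts were taken as deposited.

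**Figure D5:**
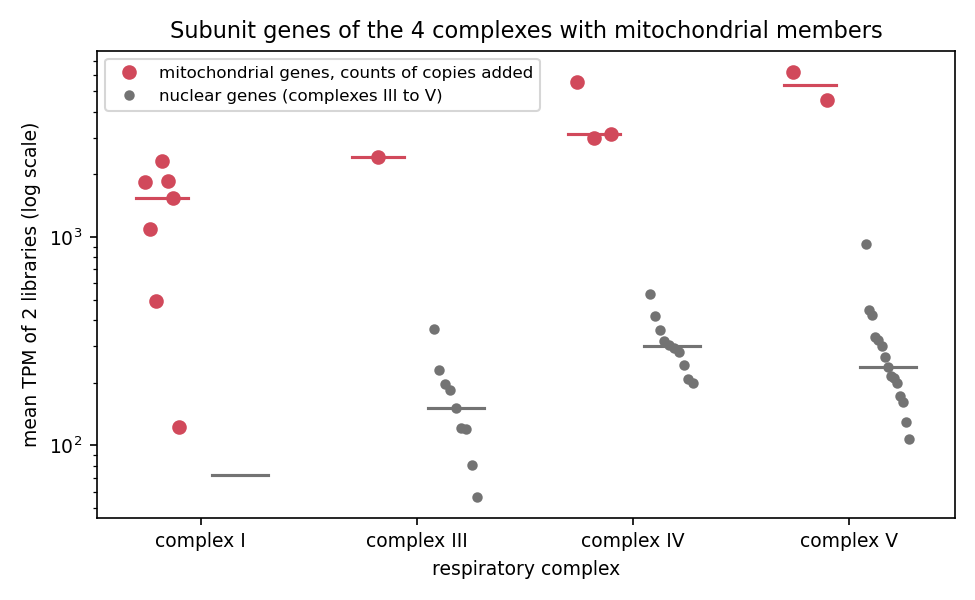
Mean TPM of 2 libraries (log scale) of mitochondrial genes with copies added (red) and nuclear genes (grey) in 4 respiratory complexes; horizontal lines are medians, and for the nuclear genes of complex I the median alone is drawn. In complexes III, IV and V all red points lie above all grey points.

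Nuclear genes that act on the members were described from 3 lists. Of 15 genes of mitochondrial transcription and of the nucleoid, the packed form of the DNA, 13 were at 1 TPM or more in both libraries, with a median of 10.3 TPM. For comparison, 45.6% of all 21474 protein-coding rows met that level, and their median was 0.55 TPM. The highest in the list was Ssbp1, which binds single-stranded mitochondrial DNA, at 98.8 ± 7.48 TPM. It was followed by Mterf3, a regulator of the transcription machinery, at 33.2 ± 3.92 TPM, by the packaging and initiation factor Tfam at 29.7 ± 6.43 TPM, and by the RNA polymerase Polrmt at 26.9 and 13.7 TPM. In this list 2 of 15 differed 2-fold or more between libraries: Polg2, at 13.1 and 5.28 TPM, and Mterf2, at 0 and 1.65 TPM. Over all protein-coding rows that passed the filter the share was 7.89%. These 2 genes were named for that difference after their values had been seen.

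All 20 genes of RNA processing and stability were at 1 TPM or more in both libraries, with a median of 22.2 TPM, and 0 of 20 differed 2-fold, beside that 7.89%. The highest were Slirp, which with Lrpprc stabilizes mitochondrial mRNAs, at 68.2 ± 13.7 TPM, and the oligoribonuclease Rexo2 at 48.5 ± 9.54 TPM. The FASTK-family gene Tbrg4 stood at 47.6 ± 0.516 TPM and Hsd17b10, a subunit of the mitochondrial RNase P, at 45.6 ± 6.86 TPM. All 18 genes of rRNA and tRNA modification were also at 1 TPM or more in both, with a median of 9.87 TPM. The highest were the methyltransferase Nsun2 at 59.9 ± 5.29, Yrdc at 24.8 ± 9.25, the pseudouridine synthase Pus1 at 20.8 ± 1.23 and the CCA-adding enzyme Trnt1 at 19.2 ± 1.48 TPM. In that list 1 of 18 differed 2-fold or more, a share near that background, namely Gtpbp3, at 1.66 and 5.98 TPM, also named after its values had been seen. RNA of genes for enzymes that cut out and modify the mitochondrial tRNAs was thus measured, although the tRNAs themselves and the enzymes were not.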

How the data were processed

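Total RNA-seq of 2 GMP libraries was used as deposited gene tables. Expected counts are estimated read counts that the authors deposited and need not be whole; the posterior mean counts are estimated counts too. Deposited TPM values are scaled by effective length and to a fixed total over all rows, and deposited FPKM values by effective length and library size; FPKM entered no result. Posterior SDs, TPM bounds and lengths are other deposited columns, per the file headers. The text files deposited beside the tables name transcriptome alignments, mm10 and annotation M4. Neither aligner nor quantification software is named there: not given in the sources used here.

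The tables hold 43346 Ensembl rows, 26248 numeric rows and 97 spike-in rows. Symbols, types and coordinates came from GENCODE M21 by Ensembl identifier, and 42462 rows matched. Values are means and SDs of 2 libraries, with 95% Wilson intervals for shares. Ratios use TPM + 1 and rows with 10 counts in at least 1 library. Copies came from BLAST 2.17.0 (word size 20, e-value 1e-10). Named genes are all members, copies with counts, the 4 highest of each nuclear list and list genes at 0; others are marked where named. A gene that this rule takes is not reported here. Copies without counts were named to account for all 11. Members, lists and cell type markers were chosen with earlier results of these data known. Software was matplotlib 3.10.9, pandas 2.3.3, scipy 1.17.1 and numpy 2.4.6 under Python 3.11.15. The fold count was tested on simulated data without reads shared between rows, so that test does not bear on members with copies. The alternatives were a pseudocount of 0.1, a mean count filter of 100, other totals and scales, copies added, each replicate left out, and scaling in R 4.3.3 by edgeR 4.0.16 (TMM) and DESeq2 1.42.0 size factors, on expected counts rounded to whole numbers.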

Additional observations from a re-analysis of the deposited data

How the results depend on the processing

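The rRNA share, 13.6% of expected counts, was 20.3% with Gm42418, Gm26917, Mir6236 and Lars2 left out of the total and 16.8% of TPM, and ranged from 12.98% to 14.12% with a replicate left out. Those rows were left out as a stand-in for reads of nuclear rRNA, which was not tested. Without those rows the totals were 26329392 expected counts in replicate 1 and 24488967 in replicate 2, against 40509954 and 35675702 with them. The shares thus depended on how many counts those rows held. The mRNA share, 1.55%, was 2.33% with those rows left out of the total, 2.82% of TPM and 1.76% with copies added, and ranged from 1.504% to 1.602% with a replicate left out. The rank of mt-Atp8 was 1 as deposited, 4 per annotated base, 2 with the TPM of copies added and 6 per annotated base with their counts added. The count of members 2-fold or more apart went from 2 to 0 with copies added in either way. The ratio of mt-Rnr2 to mt-Rnr1, 0.968, was 1.73 by counts and ranged from 0.910 to 1.03 with a replicate left out. The ratio of rRNA to mRNA, 5.97, was 8.75 by counts and 4.93 with copies added, and ranged from 5.52 to 6.42 with a replicate left out.

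Of 75 values for the log2 ratios of 15 members under alternatives, 66 stayed close to the main value, 7 moved and 2 reversed, all 9 for mt-Co2, mt-Co3 and mt-Nd4l. Values counted as close could still change sign. With TMM, mt-Nd1 went from 0.04 to -0.02, mt-Co1 from 0.02 to -0.04 and mt-Cytb from 0.01 to -0.05. With DESeq2 size factors the same members also turned negative, so which library was higher depended on the scaling for them. The mt-Nd4l ratio, -6.33, rests on a row at 0 in replicate 2 and is no bound. It was -9.63 with a pseudocount of 0.1, -3.22 with TMM, -8.31 with DESeq2 size factors, and turned to 0.12 with copies added in either way. Adding copies by counts over the member's own effective length, and per annotated base, was chosen after seeing the data. No paired analysis was possible because there is 1 group. The effect of depth on the rRNAs and mRNAs was not tested. The tRNAs, with an effective length of 0, could not be measured in these tables.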
